A study of Mus musculus with 12 samples.

Results

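The genes of the epidermis between the hair follicles were followed in mouse scars by RNA-seq. They were 10 genes taken by symbol from the 35976 listed in each of the 12 count files. Krt5 and Krt14 mark the basal layer, Krt1, Krt10, Krt2 and Krt77 the suprabasal layers, and Ivl, Flg, Hrnr and Rptn the granular layer. All 10 were found once in every file, and all 10 were among the 18853 genes that passed the filter on low counts.

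The 12 scars came from 4 groups of 3 male mice aged 8 to 12 weeks, with 1 library per mouse. A split wound of 1.5 cm was cut in the back skin, and on day 6 a plastic device was set on it. In the traction groups the device was lengthened by 1 mm a day to 8 mm in all, and in the sham groups it stayed at 0 mm. Both treatments were given to Tem1WT/WT mice and to Tem1lacZ/lacZ mice, in which a lacZ reporter stands in place of the only exon of Tem1 in every cell of the body, after 10 generations of crossing to C57BL/6J. Each library held RNA of a whole piece of scar, with epidermis, hair follicles, dermis and any muscle left in it, so fewer keratinocytes and less RNA per keratinocyte cannot be told apart in any value below. Reads of the 10 genes from the epidermis and from hair follicles cannot be told apart either.

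Keratinocytes of the basal layer build their cytoskeleton from keratin 5 paired with keratin 14. On leaving that layer they switch to keratin 1 paired with keratin 10, with keratins 2 and 77 in upper suprabasal cells of some body sites. In the granular layer they make involucrin, which is cross-linked under the plasma membrane, and the fused-type S100 proteins filaggrin, hornerin and repetin, which fill or coat the cornified cells that form the barrier of the skin. During wound healing the keratins Krt6a, Krt6b, Krt16 and Krt17 are made as well, and are called stress keratins here.

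Library totals ranged from 41536788 to 64644293 counts, and the 10 genes together took 1.17% to 4.38% of them. Cd248, the gene symbol of Tem1, had 3883 to 16413 counts per library in Tem1WT/WT mice and 0 to 13 in Tem1lacZ/lacZ mice, so every library matched its genotype label. The spread between mice of a group over all genes, estimated by edgeR as a coefficient of variation, was 34.2%. Levels are given as CPM, which are counts scaled to a common library total by the TMM method, in the order of replicates 1, 2 and 3.

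In GRCm38 the keratin genes lie in 2 clusters. Krt5 (chr15:101707069-101712905), Krt2 (chr15:101810689-101818956), Krt1 (chr15:101845426-101850786) and Krt77 (chr15:101858731-101869706) belong to the type II cluster, and Krt10 (chr11:99385254-99397449) and Krt14 (chr11:100203162-100207510) to the type I cluster, all on the minus strand. The granular genes lie in the epidermal differentiation complex of chromosome 3, with Ivl (chr3:92570899-92573790) on the minus strand and Flg (chr3:93273546-93293689), Hrnr (chr3:93319749-93333572) and Rptn (chr3:93393699-93399442) in a row on the plus strand. Reads of Flg and Hrnr are uncertain, because 79.2% of the stretches of 50 bases in the Flg transcript and 69.1% of those in the Hrnr transcript occur more than once within it. Of the Krt14 transcript 14.4% of these stretches are shared with Krt16 or Krt17, and of the Krt5 transcript 8.52% are shared with Krt6a, Krt6b and their relatives. Krt10 shares 6.91% of its exon bases with an antisense gene, Gm11940, on the other strand.

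RefSeq start sites in GRCm38.p6 were matched for 9 of the 10 genes, all but Krt1. The window of 250 bases before to 50 bases after the start is shown for 1 basal gene, the suprabasal genes Krt10 and Krt77, whose levels went different ways below, and 2 granular genes. Capitals mark the letters TATAAA, searched on both strands, and TGANTCA, which reads the same on both strands and is a form of the AP-1 motif.
Krt5 (chr15:101712856-101713155, minus strand): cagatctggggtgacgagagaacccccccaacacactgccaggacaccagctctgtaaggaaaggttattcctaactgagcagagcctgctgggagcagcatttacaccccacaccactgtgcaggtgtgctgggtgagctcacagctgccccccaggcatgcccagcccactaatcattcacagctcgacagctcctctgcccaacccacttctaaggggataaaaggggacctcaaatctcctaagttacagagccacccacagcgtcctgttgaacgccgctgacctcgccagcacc
Krt10 (chr11:99389315-99389614, minus strand): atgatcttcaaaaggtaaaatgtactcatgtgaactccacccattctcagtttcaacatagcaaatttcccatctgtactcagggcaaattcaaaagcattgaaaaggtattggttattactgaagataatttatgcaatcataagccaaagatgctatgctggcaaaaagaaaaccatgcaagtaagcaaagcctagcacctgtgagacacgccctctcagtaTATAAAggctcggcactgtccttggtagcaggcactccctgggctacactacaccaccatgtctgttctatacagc
Krt77 (chr15:101869656-101869955, minus strand): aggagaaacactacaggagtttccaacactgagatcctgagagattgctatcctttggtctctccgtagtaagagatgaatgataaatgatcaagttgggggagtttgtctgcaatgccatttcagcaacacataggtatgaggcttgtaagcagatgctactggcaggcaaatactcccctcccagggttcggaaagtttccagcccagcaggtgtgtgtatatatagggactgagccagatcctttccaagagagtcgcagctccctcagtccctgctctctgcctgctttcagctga
Ivl (chr3:92573686-92573985, minus strand): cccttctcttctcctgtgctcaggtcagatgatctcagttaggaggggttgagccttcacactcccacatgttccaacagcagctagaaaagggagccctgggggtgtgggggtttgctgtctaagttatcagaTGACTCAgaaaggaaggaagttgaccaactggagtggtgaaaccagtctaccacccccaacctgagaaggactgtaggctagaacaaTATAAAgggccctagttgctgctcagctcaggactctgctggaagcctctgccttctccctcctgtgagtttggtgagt
Flg (chr3:93273296-93273595, plus strand): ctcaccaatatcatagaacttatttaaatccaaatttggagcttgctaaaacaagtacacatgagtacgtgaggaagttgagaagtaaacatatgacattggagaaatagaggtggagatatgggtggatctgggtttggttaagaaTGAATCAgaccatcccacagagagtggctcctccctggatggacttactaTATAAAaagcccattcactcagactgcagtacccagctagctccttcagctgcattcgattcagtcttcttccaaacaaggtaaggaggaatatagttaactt
TATAAA was present in the windows of all 4 granular genes, with its first letter at −29 from the start in Ivl, −53 in Flg and −31 in both Hrnr and Rptn, and at −26 in Krt10. It was not found in the windows of Krt5, Krt14, Krt2 and Krt77. TGANTCA was found in Ivl at −116, in Flg at −103 and in Rptn at −96, and in none of the keratin windows. Of all 32851 RefSeq windows of 300 bases, 13.6% held TATAAA and 7.81% held TGANTCA. The windows of Krt14 and Krt2 start inside the gene as annotated, and that of Krt10 is at the start of its shorter transcript. The start site used for Ivl, at 92573735, also lies inside the gene, which begins at 92573790 on the minus strand. The motif positions of Ivl are counted from the start site used.

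Per kilobase of transcript the basal keratins were the highest of the 10 genes and Krt2 the lowest. Over the 12 libraries the mean was 4860 ± 3617 CPM per kb for Krt14 (SD, n = 12) and 1491 ± 356 for Krt5, followed by 1250.0 ± 641 for Krt1 and 1092 ± 558 for Krt10. Rptn reached 275 ± 223 CPM per kb, Ivl 170.2 ± 89.5 and Krt77 145 ± 122. Flg and Hrnr, with transcripts of 14497 and 11187 bases, stood at 44.4 ± 26.4 and 26.1 ± 18.3 CPM per kb, and Krt2 at 0.626 ± 0.561. Neighbours in this order differed by less than the larger of their SDs, except for the steps from Krt10 to Rptn and from Hrnr to Krt2. In every library Krt14 was above Krt5 in CPM per kb.

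Krt5, the type II keratin of the basal layer, was the steadiest of the 10 genes. In Tem1WT/WT mice it was at 2962, 2894 and 2835 CPM in the sham group and at 3939.6, 2564 and 3041 CPM with traction. In Tem1lacZ/lacZ mice it was at 3543, 4118 and 2954 CPM and 5168, 2569 and 2710.1 CPM. Its highest library exceeded its lowest 2.02-fold, and the SD of log2 CPM within groups was 0.34.

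Krt14, its type I partner, varied far more, by 8.17-fold over the libraries. It was at 3051, 3123 and 6494 CPM in the sham group and 12334, 4771 and 8281 CPM in the traction group of Tem1WT/WT mice. Among Tem1lacZ/lacZ mice it was at 6666, 9597 and 11656 CPM and 24932, 3637 and 4482 CPM. Replicate 1 of the Tem1lacZ/lacZ traction group stood apart as the highest of all, while replicates 2 and 3 of the same group were below every Tem1lacZ/lacZ sham library. The ratio of Krt14 to Krt5 counts therefore ran from 1.03 to 4.82.

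The stress keratins varied over the libraries as well. Their summed level was 3286, 3157 and 8918 CPM in the sham group and 20554.9, 6661 and 10416 CPM in the traction group of Tem1WT/WT mice. In Tem1lacZ/lacZ mice it was 11182, 11404 and 13708 CPM without traction and 26439, 4183 and 4824 CPM with it. In every group the library with the most Krt14 also had the highest sum of stress keratins, and Krt14 shares sequence with Krt16 and Krt17. The part of shared reads in this was not tested. Krt17 taken alone was at 2493, 1986 and 2432 CPM in the Tem1WT/WT sham group and 5185, 4577 and 3095 CPM in the Tem1lacZ/lacZ sham group, so that in the sham groups it was highest where Krt14 was lowest. With traction it was at 3786, 1467 and 956 CPM in Tem1WT/WT and 3088, 1380.3 and 1173 CPM in Tem1lacZ/lacZ mice, highest in the library with the most Krt14.

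**Figure D1:**
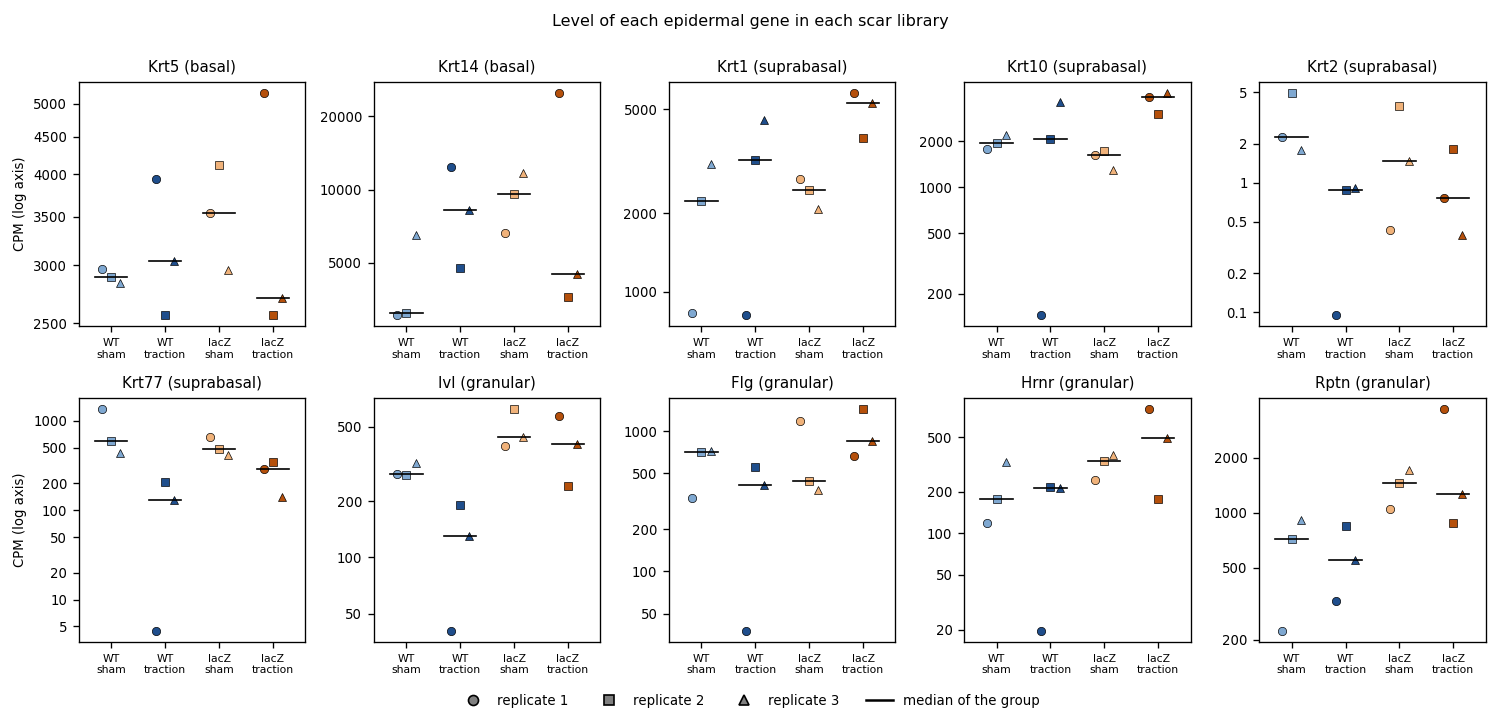
Level of each of the 10 genes in each of the 12 scar libraries, in TMM-normalized CPM on a log axis, by genotype and treatment, with symbols for replicates 1, 2 and 3 and a line at the group's median. Replicate 1 of the Tem1WT/WT traction group is the lowest of the 12 libraries for 7 genes, Krt1, Krt10, Krt2, Krt77, Ivl, Flg and Hrnr, but not for Krt5, Krt14 or Rptn.

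Krt1 and Krt10 form the keratin pair of the suprabasal layers. Krt1 was at 831, 2232 and 3072 CPM in the sham and 813, 3186 and 4563 CPM in the traction group of Tem1WT/WT mice. For Tem1lacZ/lacZ mice it was at 2709, 2448 and 2074 CPM without and 5765, 3870.0 and 5262 CPM with traction. In the latter genotype the groups did not overlap, and all traction libraries were higher.

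Krt10 was at 1783, 1959 and 2203 CPM in Tem1WT/WT sham scars and 145, 2058 and 3641 CPM with traction, so that 1 library of the traction group held a small part of the level of the other 2. In Tem1lacZ/lacZ scars it was at 1629, 1721 and 1297 CPM without and 3879, 2998 and 4136 CPM with traction. Here too all traction libraries were above all sham libraries.

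Krt77 had the opposite order. It was at 1370.0, 594 and 439 CPM in the sham group of Tem1WT/WT mice and at 4.47, 207 and 130.2 CPM with traction. In Tem1lacZ/lacZ mice it was at 666, 488 and 418 CPM and at 289, 343 and 142 CPM. Within each genotype every traction library was below every sham library.

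Krt2 was near the lower end of detection, at 4 to 339 counts per library. Its levels were 2.26, 4.92 and 1.79 CPM in the sham and 0.0952, 0.883 and 0.904 CPM in the traction group of Tem1WT/WT mice, which did not overlap. In Tem1lacZ/lacZ mice they were 0.428, 3.92 and 1.47 CPM and 0.764, 1.81 and 0.396 CPM, which did.

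Among the granular genes, Ivl encodes involucrin. It was at 279.6, 277 and 321 CPM in the sham and 40.4, 191 and 130.5 CPM in the traction group of Tem1WT/WT mice. In Tem1lacZ/lacZ scars its level was 396, 626 and 444 CPM and 574, 242 and 403 CPM. All 3 Tem1WT/WT traction libraries were below the other 9.

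Flg encodes profilaggrin, which is cut into filaggrin units that bundle keratin filaments. It was at 335, 706 and 724 CPM in the sham and 37.8, 551 and 413 CPM in the traction group of Tem1WT/WT mice. For Tem1lacZ/lacZ mice it was at 1182, 441 and 383 CPM and 665, 1443 and 844 CPM, and the groups overlapped within both genotypes.

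Hrnr encodes hornerin, a repeat protein related to filaggrin. It was at 119, 177 and 330.5 CPM and 19.6, 217 and 213 CPM in the sham and traction groups of Tem1WT/WT mice. Those of Tem1lacZ/lacZ mice had 244, 335 and 373 CPM and 806, 178 and 496 CPM. The groups overlapped within each genotype.

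Rptn encodes repetin, another fused-type S100 protein. It was at 225, 713 and 912 CPM in the sham and 329, 849 and 547 CPM in the traction group of Tem1WT/WT mice. Among Tem1lacZ/lacZ mice it was at 1047, 1456 and 1708 CPM and 3728, 879 and 1271 CPM. The highest level of all was in replicate 1 of the Tem1lacZ/lacZ traction group, the library with the most Krt14, Krt5 and Krt1.

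Replicate 1 of the Tem1WT/WT traction group stood apart from the other 11 libraries. Of the 8 suprabasal and granular genes, 7 had their lowest level there and Rptn was low there without being the lowest. Krt77 in that library was 37.6-fold, Krt10 19.6-fold and Flg 12.8-fold below the mean of the other 2 libraries of its group, whereas Rptn was 2.12-fold below. Krt5 and Krt14 were 1.41-fold and 1.89-fold above that mean. Over all genes tested, 18.9% were lowest in this library and 16.9% highest. The same library held the most of the neutrophil genes S100a9 and S100a8, 3935 and 1296 CPM against at most 302 and 148 CPM in any other. Summed over the neutrophil list of 10 genes, it had 7063 CPM against 666 and 314 CPM in the other 2 libraries of its group and 116 to 564 CPM in the remaining 9. The cornified layer gene Flg2, which encodes another relative of filaggrin, was at 1.45 CPM there, whereas Tgm1, the transglutaminase that cross-links involucrin, was at its highest, 396 CPM. Results for traction in Tem1WT/WT mice are therefore given with and without that library.

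**Figure D2:**
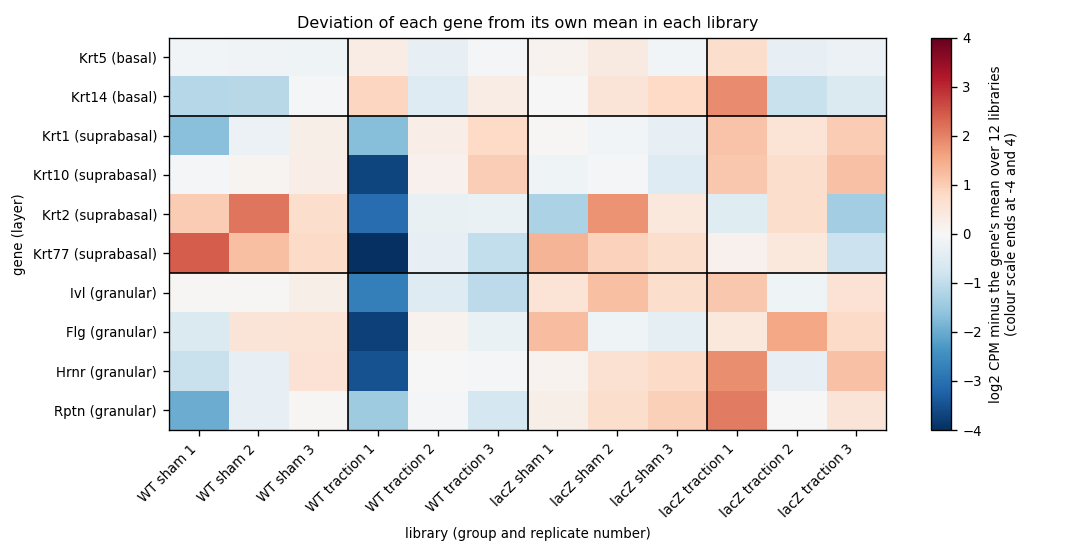
Deviation of log2 CPM of each gene (rows, by layer) in each library (columns, by group and replicate) from the gene's mean over the 12 libraries, with the colour scale ending at 4 in either direction. The suprabasal and granular rows are blue in replicate 1 of the Tem1WT/WT traction group, where the basal rows are pale red.

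Traction against sham in Tem1WT/WT mice asks how stretch of the scar changed these genes with Tem1 present. The highest estimate was that of Krt14 and the lowest were those of Krt77, Krt2 and Ivl, but 0 of the 10 genes passed an adjusted p under 0.05 in edgeR's quasi-likelihood test, in which 9.15% of all genes passed. At an unadjusted p under 0.05 there were 3, namely Krt77, Krt2 and Ivl, against 31.4% of all genes. The same 3 were the genes without overlap between groups, against 35.7% of all genes, and all were lower with traction, as 18% of all genes were. The median log2 fold change was 0.57 over the 2 basal genes, −1.13 over the 4 suprabasal and −0.65 over the 4 granular genes, and −0.01 over all genes tested.

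By gene, the log2 fold change of Krt77 was −2.82 (SE 0.96, adjusted p = 0.0791 from edgeR), that of Krt2 −2.24 (SE 0.92, adjusted p = 0.124 from edgeR) and that of Ivl −1.28 (SE 0.47, adjusted p = 0.0962 from edgeR). DESeq2's Wald test, run on the same counts, called these 3 genes and no other member, at adjusted p of 0.00702, 0.0414 and 0.0378. It called 21.5% of all genes, so 3 of 10 is near that share, and limma-voom called 0 members and 3.9% of all genes. Krt1 and Krt10 had estimates of 0.48 and −0.02, with 95% intervals from −0.75 to 1.71 and from −1.62 to 1.57. For Krt5 and Krt14 they were 0.14, with an interval from −0.50 to 0.77, and 1.00, from −0.50 to 2.51. Flg, Hrnr and Rptn had estimates of −0.82, −0.48 and −0.10, each with a 95% interval that included 0.

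Without replicate 1 of the traction group, edgeR again called 0 members, and 1.86% of all genes. Krt77 was then at a log2 fold change of −2.26 (SE 0.54, adjusted p = 0.0522 from edgeR), Ivl at −0.88 (adjusted p = 0.132 from edgeR) and Krt2 at −1.76. Krt10 turned from −0.02 to 0.50 and Hrnr from −0.48 to 0.02, and Krt1 went to 0.90 and Flg to −0.30. Krt5 and Rptn also changed sign, to −0.07 and 0.16, and Krt14 moved to 0.61. Leaving out replicate 2 of the traction group instead gave 1 call, Ivl at −1.76 (adjusted p = 0.0422 from edgeR), in a fit that called 14.7% of all genes.

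**Figure D3:**
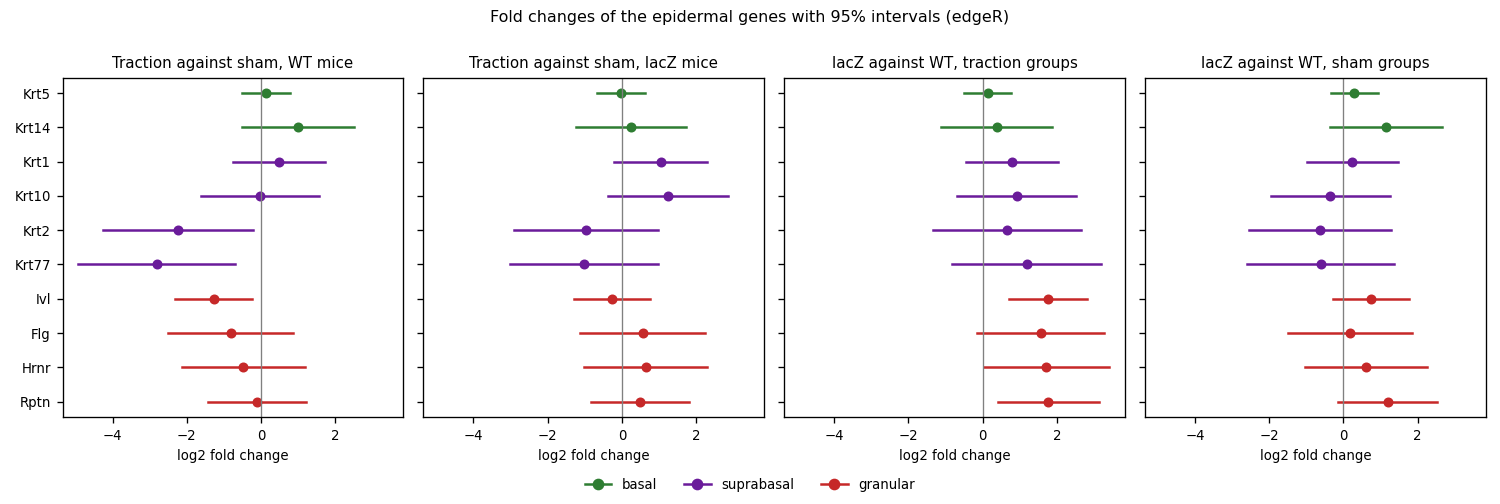
Log2 fold change (point) and 95% interval (line) of each gene from edgeR, by layer, for traction against sham within each genotype and for Tem1lacZ/lacZ against Tem1WT/WT within each treatment. In the traction groups all 10 estimates are above 0 for Tem1lacZ/lacZ against Tem1WT/WT mice, from 0.13 for Krt5 to 1.77 for Rptn.

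Traction against sham in Tem1lacZ/lacZ mice put the same question without Tem1. The keratin pair Krt1 and Krt10 had the highest estimates and Krt77 and Krt2 the lowest. In edgeR 0 of the 10 genes passed, as did 0% of all genes, and 0 had an unadjusted p under 0.05, against 8.12% of all genes. DESeq2 and limma-voom also called 0 members, against 0.122% and 2% of all genes. The log2 fold change of Krt10 was 1.24 (SE 0.74, adjusted p = 0.655 from edgeR), that of Krt1 1.04 (SE 0.56, adjusted p = 0.640 from edgeR), and that of Krt77 −1.02 (SE 0.90, adjusted p = 0.762 from edgeR). Krt1 and Krt10 did not overlap between groups and were higher with traction, as 6.77% of all genes were, and Krt77 was lower without overlap, as 6.16% were. These were 3 of 10, against 12.9% of all genes in either direction. The granular genes lay between −0.27 for Ivl and 0.64 for Hrnr. Leaving out 1 library at a time, Ivl ran from −0.55 to −0.0035 and Hrnr from 0.14 to 1.04. Krt14 was at 0.24, and at −1.15 without replicate 1 of the traction group.

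Averaged over both genotypes, traction gave a log2 fold change of −1.92 for Krt77 (SE 0.66, adjusted p = 0.0810 from edgeR), −1.60 for Krt2 and −0.77 for Ivl, and of 0.76 for Krt1 and 0.61 for Krt10. Of the 10 genes 0 passed in edgeR, against 9.73% of all genes (6.5% higher and 3.23% lower), and Krt77, Krt2 and Ivl had an unadjusted p under 0.05, as 30.7% of all genes had. DESeq2 called 2 members, Krt77 (adjusted p = 0.00979) and Krt2 (adjusted p = 0.0398), and limma-voom called Krt77 (adjusted p = 0.0417). Each of these tools called 20.4% of all genes, which neither count exceeds. Without replicate 1 of the Tem1WT/WT traction group, edgeR called 2 members. Krt10 was at a log2 fold change of 0.89 (SE 0.18, adjusted p = 0.0264 from edgeR) and Krt77 at −1.63 (SE 0.35, adjusted p = 0.0279 from edgeR). In that fit 1702 of 19388 genes passed, 8.78%, and Krt1 was at 0.99 (adjusted p = 0.0589 from edgeR). These genes were lowest in the library left out, and it was singled out by such values, so the calls depend on that choice. With all libraries the adjusted p of Krt10 was 0.440 from edgeR.

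The 2 suprabasal keratins could also be compared within a library, where scaling plays no part. The ratio of Krt77 to Krt10 counts was 0.769, 0.303 and 0.199 in Tem1WT/WT sham scars and 0.409, 0.284 and 0.322 in Tem1lacZ/lacZ sham scars. With traction it was 0.0308, 0.1004 and 0.0357 in Tem1WT/WT mice and 0.0745, 0.115 and 0.0342 in Tem1lacZ/lacZ mice. All 6 traction libraries were below all 6 sham libraries, including the Tem1WT/WT library with little of either gene. This pair was picked after its values had been seen, so no test is given for it.

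Against Krt5, the steadiest of the genes, Krt10 was higher with traction in every Tem1lacZ/lacZ library. The Krt10 to Krt5 ratio was 0.460, 0.418 and 0.439 in their sham and 0.751, 1.17 and 1.53 in their traction libraries. In Tem1WT/WT mice it was 0.602, 0.677 and 0.777 in the sham and 0.0368, 0.803 and 1.20 in the traction libraries, where replicates 2 and 3 were above the sham range and replicate 1 far below it. The Ivl to Krt5 ratio was 0.0944 to 0.113 in Tem1WT/WT sham libraries and 0.0103, 0.0746 and 0.0429 in the traction libraries, and 0.0943 to 0.152 over the 6 Tem1lacZ/lacZ libraries. As with the levels of Ivl, the 3 Tem1WT/WT traction libraries were below all others.

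**Figure D4:**
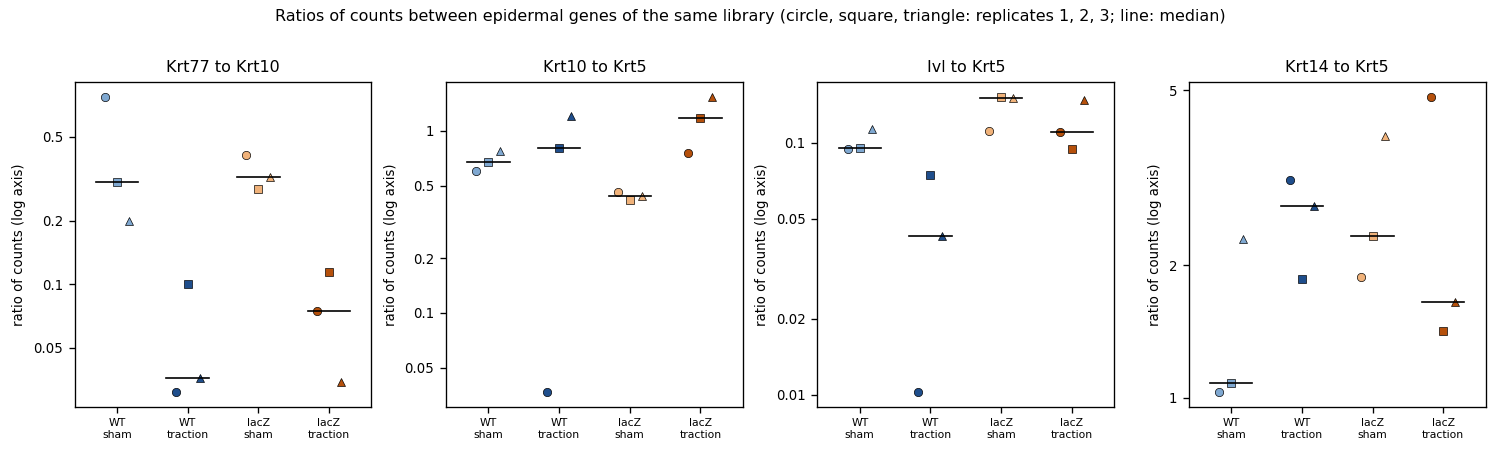
Ratio of counts of 2 genes within each library, on a log axis, by group, for Krt77 to Krt10, Krt10 to Krt5, Ivl to Krt5 and Krt14 to Krt5, with a line at the group's median. The Krt77 to Krt10 ratio is at most 0.115 in the 6 traction libraries and at least 0.199 in the 6 sham libraries.

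Tem1lacZ/lacZ against Tem1WT/WT mice under traction asks what loss of Tem1 changed in stretched scars. All 10 genes had estimates above 0, with a median log2 fold change of 0.26 over the basal, 0.86 over the suprabasal and 1.73 over the granular genes, against 0.01 over all genes tested. In edgeR 0 of the 10 passed, as 0.106% of all genes did. An unadjusted p under 0.05 was found for Ivl, Rptn and Hrnr, 3 of 10 against 26.1% of all genes, and the groups did not overlap for Ivl, Flg and Rptn, all higher in Tem1lacZ/lacZ mice, as 12.9% of all genes were, with 26.6% not overlapping in either direction. The log2 fold change was 1.75 for Ivl (SE 0.48, adjusted p = 0.0951 from edgeR), 1.77 for Rptn (SE 0.62, adjusted p = 0.123 from edgeR), 1.72 for Hrnr (SE 0.77, adjusted p = 0.186 from edgeR) and 1.56 for Flg (SE 0.78, adjusted p = 0.227 from edgeR).

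DESeq2 called 2 of these, Ivl (adjusted p = 0.00747) and Rptn (adjusted p = 0.0298), and 12.2% of all genes, and limma-voom called 0 members and 0.0849% of all genes. Without replicate 1 of the Tem1WT/WT traction group the estimates were 1.36 for Ivl, 1.504 for Rptn, 1.22 for Hrnr and 1.06 for Flg, and those of Krt10, Krt77 and Krt1 were 0.40, 0.64 and 0.39 in place of 0.91, 1.18 and 0.80. Without replicate 2 of that group Ivl was called, at 2.25 (adjusted p = 0.0345 from edgeR), in a fit that called 7.32% of all genes. Without replicate 1 of the Tem1lacZ/lacZ traction group Rptn was at 0.94, and Krt14 and Krt5 changed sign from 0.38 and 0.13 to −1.03 and −0.23.

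Tem1lacZ/lacZ against Tem1WT/WT mice in the sham groups asks what the genotype changed without stretch. In edgeR 0 of the 10 genes passed, against 0.0106% of all genes, and 0 had an unadjusted p under 0.05, against 11.7%. DESeq2 and limma-voom called 0 members as well, against 0.143% and 0.0053% of all genes. Rptn, Krt14 and Ivl were higher in Tem1lacZ/lacZ mice without overlap, as 13% of all genes were, with log2 fold changes of 1.19 (SE 0.61), 1.14 (SE 0.68) and 0.74 (SE 0.47) and adjusted p of 0.460, 0.513 and 0.534 from edgeR. Krt10 was lower without overlap, at −0.36, as 13.8% of all genes were, and 26.8% did not overlap in either direction.

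The genotype by traction interaction tests whether the effect of traction itself differed between genotypes. In edgeR, DESeq2 and limma-voom 0 of the 10 genes passed, as did 0% of all genes in edgeR and limma-voom and 0.366% in DESeq2, and 0 had an unadjusted p under 0.05 in edgeR, against 8.91% of all genes. The estimates were above 0 for the 8 suprabasal and granular genes, from 0.56 for Krt1 to 1.79 for Krt77, and below 0 for Krt5 and Krt14. For Ivl the interaction was 1.01, with a 95% interval from −0.44 to 2.46, and for Krt10 it was 1.27, from −0.997 to 3.54. Both intervals include 0. In a fit without replicate 1 of the Tem1WT/WT traction group the interaction was 1.27 for Krt77 in place of 1.79, 0.89 for Flg in place of 1.37, 0.77 for Krt10, 0.64 for Ivl and 0.17 for Krt1, and 0 members passed in edgeR.

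Other genes of keratinocytes, in lists written from general knowledge of skin, were read in the same comparisons. Earlier results of these data were known when they were chosen, so the counts below only describe these lists. Of their 104 genes tested, 18 fell and 3 rose with traction in Tem1WT/WT mice in edgeR, against 3.54% and 5.61% of all genes. DESeq2 called 45 of them, with 21.5% of all genes called, and limma-voom 2, with 3.9%. Leaving out replicate 1 of the traction group, edgeR called 2 of 105, with 1.86% of all genes called. The list medians without that library were −2.07 for hair keratins, −1.98 for other fused-type S100 genes, −0.74 for filaggrin processing genes and −0.58 for cornified layer genes, so these medians stayed below 0 while most calls were lost. In fits without replicate 1 or replicate 2 of the Tem1WT/WT sham group, edgeR called 0 of all genes for traction in Tem1WT/WT mice. With all libraries kept, 3 of 17 cornified layer genes fell and 0 rose in that comparison, with a list median log2 fold change of −0.73. Those that fell were Cst6, an inhibitor of cysteine proteases (−1.83, adjusted p = 0.0389 from edgeR), Ppl, which encodes periplakin (−0.76), and Aloxe3, a lipoxygenase of the lipid envelope (−0.74). Of 10 genes that process filaggrin 3 fell and 0 rose, with a median of −0.90: Padi3 (−1.78) and Padi1 (−1.61) encode deiminases and Prss8 (−1.16) a membrane protease. All 4 other fused-type S100 genes had estimates below 0, and 2 passed, Tchh at −1.98 (adjusted p = 0.0329 from edgeR) and Tchhl1 at −2.48. Tchh encodes trichohyalin, which belongs to the inner root sheath of the hair follicle rather than to the epidermis between follicles.

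Among 11 basal adhesion genes Krt15 fell, at a log2 fold change of −2.64. Krt15 is a keratin of basal and hair follicle bulge cells, and was at 1471, 529 and 387 CPM in the sham and 44.1, 203 and 137 CPM in the traction libraries of Tem1WT/WT mice. Of the 18 spinous and desmosome genes 0 passed in edgeR, with a median of −0.29 and 3 at an unadjusted p under 0.05, and DESeq2 called 1. That gene was Dsg1a, a desmosomal cadherin, which also had the lowest estimate of the list in edgeR, −0.97. Of 20 epidermal transcription factors 4 fell, among them Grhl1 (−1.20), Gata3 (−1.30) and Vdr (−0.92), and Cebpb (2.09) was among those that rose. Of the 4 stress keratins 0 passed in edgeR and Krt16 alone in DESeq2, with estimates of 2.04 for Krt6b, 1.92 for Krt16, 1.72 for Krt6a and −0.15 for Krt17.

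In hair shaft and root sheath keratins, 3 of 13 tested fell and 0 rose. They were Krt34 (−2.67), Krt86 (−2.36) and Krt81 (−2.40), and all 13 had estimates below 0, with a median of −2.28. DESeq2 called all 13 lower. In limma-voom, and in edgeR without replicate 1 of the Tem1WT/WT traction group, 0 of the 13 passed. Of 8 keratins of simple and other epithelia Krt8 (−2.14) and Krt79 (−1.39) fell and 0 rose, and Krt79 is made in the upper hair follicle. Among the Tem1lacZ/lacZ groups 0 of the 104 genes passed in edgeR or DESeq2 and 6 had an unadjusted p under 0.05 in edgeR, against 8.12% of all genes, whereas limma-voom called 3, against 2% of all genes. The list medians were between −0.46 for hair keratins and 0.31 for basal adhesion genes. Between genotypes with traction edgeR and limma-voom called 0 and DESeq2 26, with 12.2% of all genes called, and 48 had an unadjusted p under 0.05 in edgeR, against 26.1% of all genes. The medians were 1.72 for both hair keratins and other fused-type S100 genes, 1.03 for filaggrin processing genes, 0.99 for simple and other keratins, 0.72 for cornified layer, 0.58 for spinous and 0.30 for transcription factor genes, and −0.07 for stress keratins and −0.52 for basal adhesion genes. Without replicate 1 of the Tem1WT/WT traction group the stress keratin median turned to 0.49, and with limma-voom it was −0.82. Leaving out that library also gave −0.23 for basal adhesion and 0.48 for transcription factor genes. The remaining lists then had medians from 0.60 for spinous genes to 1.55 for hair keratins.

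**Figure D5:**
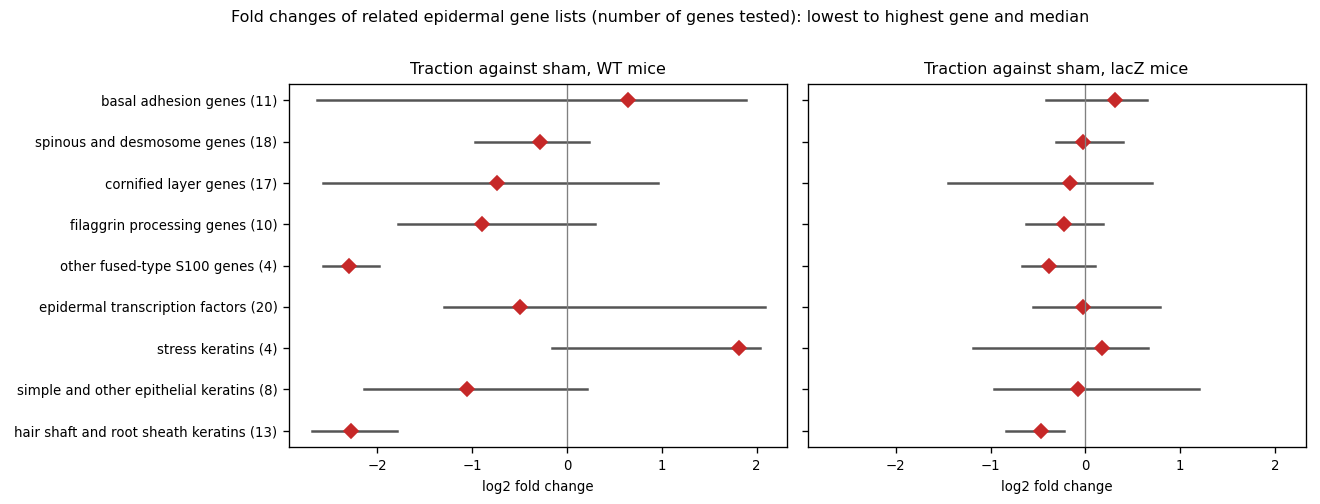
Range of log2 fold changes from the lowest to the highest gene (line) and median (diamond) of 9 lists of keratinocyte genes, for traction against sham in each genotype, with the number of genes tested in parentheses. In Tem1WT/WT mice the medians of the other fused-type S100 genes and the hair keratins are −2.30 and −2.28, and in Tem1lacZ/lacZ mice −0.38 and −0.46.

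Markers of other cells of the scar also moved with traction in Tem1WT/WT mice. Of 8 neutrophil markers tested 4 rose, Csf3r, Cxcr2, S100a9 and S100a8, by log2 fold changes of 4.70 to 5.63, and of 5 endothelial markers 4 rose. Over all genes tested 5.61% rose. Without replicate 1 of the traction group 1 neutrophil marker, Csf3r, 2 endothelial markers and 0 fibroblast markers passed, and the neutrophil list median was 1.48 in place of 3.90. Fibroblast markers, of which 1 of 11 rose (Pdgfra, 1.45), summed to 29722 to 50322 CPM in the sham and 47857 to 124992 CPM in the traction libraries of Tem1WT/WT mice. The sums of Tem1lacZ/lacZ mice were 24482 to 42124 CPM and 30722 to 59490.3 CPM. Skeletal muscle markers ranged from 1329 to 13644 CPM in the Tem1WT/WT sham group and from 346 to 2022 CPM with traction. Sebocyte markers summed to 713 to 1001 CPM in the former and 235 to 675 CPM in the latter. The sum of the granular genes was 958 to 2288 CPM in Tem1WT/WT sham, 427 to 1809 CPM in Tem1WT/WT traction, 2858 to 2908 CPM in Tem1lacZ/lacZ sham and 2742 to 5773 CPM in Tem1lacZ/lacZ traction libraries. The part of the cell makeup of the scars in the levels of the 10 genes was not tested.

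Over the 12 libraries, which share their groups and normalization, the genes of a layer followed each other unevenly. Pearson's r of log2 CPM was 0.80 for Krt5 with Krt14, 0.79 for Krt1 with Krt10, 0.88 for Ivl with Hrnr and 0.81 for Hrnr with Rptn. Krt10 with Krt77 gave 0.67 over all 12 libraries and −0.70 without replicate 1 of the Tem1WT/WT traction group, and Krt1 with Krt77 went from 0.20 to −0.85. Flg with Ivl went from 0.72 to 0.05. The basal pair gave r between −0.35 and −0.22 with Krt10 and Flg over all 12 libraries. Without that library r with Krt10 was 0.09 for Krt5 and 0.13 for Krt14. Krt14 gave 0.55 with Rptn and 0.17 with Hrnr over all libraries and 0.78 and 0.79 without it, and Krt5 with Ivl went from 0.13 to 0.65.

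The genes outside the set whose log2 CPM ran most like each layer were looked up among 13637 genes whose log2 CPM averaged 1 or more, by Pearson's r over the 12 libraries with the mean of the layer's standardized values. For the basal pair they were Rhod (0.95), Dhrs1 (0.95), Ly6d (0.94), Degs2 (0.94) and Fam162a (0.94). For the granular genes they were Kctd4 (0.96), Aspn (0.96), Lce1d (0.95), Lce1c (0.95) and Calml3 (0.94), and without replicate 1 of the Tem1WT/WT traction group their r was 0.81 to 0.90. For the suprabasal genes they were Cdk15 (0.97), Slc25a53 (0.95), Npbwr1 (0.94), Nckap5 (0.94) and Tdrd3 (0.94), whose r was 0.04 to 0.59 without that library. Lce1c and Lce1d encode late cornified envelope proteins, and Calml3 a calmodulin-like protein of stratified epithelia. Lce1c, Lce1d and Calml3 ranked below Kctd4 and Aspn, and no cell type was assigned from the likeness.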

How the data were processed

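Scar RNA from 12 mice, 3 in each of 4 groups, was prepared with a poly(A) kit that marks strand and sequenced as paired reads. The authors trimmed reads with fastp 0.20.0, aligned them to GRCm38 with HISAT2 2.1.0 and counted them per gene with featureCounts 2.0.0, per the submitters' processing notes and methods. The deposited values are raw counts for 35976 genes in each of 12 libraries. The annotation release, the strand setting and the handling of multi-mapping reads are not given in the sources used here, and these decide how reads of repeats, paralogs and antisense genes were shared out.

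Counts were used as deposited, in R 4.3.3. Genes were kept by filterByExpr of edgeR 4.0.16 over the groups, which left 18853, and scaled by TMM. One model with a mean per group and 8 residual degrees of freedom was tested by the robust quasi-likelihood method of edgeR, two-sided, with Benjamini-Hochberg adjustment over all genes kept and a threshold of 0.05, in 6 comparisons. The authors' methods name DESeq2, which was run here (version 1.42.0) beside limma-voom (limma 3.58.1) as an alternative. Nothing in the labels ties the 3 libraries of a group to separate litters or days, so p-values measure the spread between these mice only. No pair of libraries within a group agreed within sampling noise.

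In data simulated for traction in Tem1WT/WT mice over 18853 genes, edgeR recovered 16 of 50 genes changed 2-fold, 42 of 50 changed 4-fold, 47 of 50 changed 8-fold and 48 of 50 changed 16-fold, with 10 false calls. In the same order, limma-voom recovered 15, 40, 47 and 49 with 11 false calls, and DESeq2 recovered 32, 45, 50 and 49 with 60 false calls.

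The 10 genes and the lists of other genes were chosen with earlier results of these data known. Values are given for all 10 genes and, of each other list, for the genes with the lowest and highest log2 fold change for traction in Tem1WT/WT mice, up to 4 with the lowest p there and any that passed in another comparison, as far as these add to the description. Some genes of these lists are not reported here by name. Like genes were the 5 per layer with the highest r. The other alternatives were 2 other filters, 2 other scalings, estimation without robust weights, a replicate block, separate fits of the groups compared and leaving out each library. Counts for the lists in other tools and without replicate 1 of the Tem1WT/WT traction group were added after seeing the data. Figures were drawn with Python 3.11.15 and matplotlib 3.10.9.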

Additional observations from a re-analysis of the deposited data

Results flagged for a closer look

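Flg had traction estimates of opposite sign in the genotypes, −0.82 in Tem1WT/WT and 0.56 in Tem1lacZ/lacZ mice, though neither passed in edgeR, both 95% intervals include 0 and the groups overlapped in both. On the log2 scale all 3 Tem1WT/WT traction libraries, at 37.8, 551 and 413 CPM, were below the mean of their sham group, and all 3 Tem1lacZ/lacZ traction libraries, at 665, 1443 and 844 CPM, were above that of theirs. The Tem1WT/WT library at 551 CPM was only just below its sham mean on that scale, and in plain CPM the Tem1lacZ/lacZ library at 665 is below its sham mean of 669. The test of this difference, the genotype by traction interaction, gave 1.37 on the log2 scale with a 95% interval from −1.001 to 3.75 and did not pass (adjusted p = 0.688 from edgeR). Without replicate 1 of the Tem1WT/WT traction group the Tem1WT/WT estimate was −0.30 and the interaction 0.89. Leaving out 1 library at a time, the interaction ran from 0.89 to 2.13 and the Tem1lacZ/lacZ estimate from 0.18 to 1.30.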

How the results depend on the processing

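Of the counts of the 10 genes called per comparison, those for traction in Tem1lacZ/lacZ mice, genotype in the sham groups and the interaction were 0 under every alternative run. For traction in Tem1WT/WT mice DESeq2 called 3, and leaving out 1 library gave 0 to 1. For genotype with traction DESeq2 called 2, and leaving out 1 library gave 0 to 1. For traction averaged over genotypes DESeq2 called 2 and limma-voom 1, and leaving out 1 library gave 0 to 2. Among all genes, traction in Tem1WT/WT mice gave 1725 calls, 4047 with DESeq2, 735 with limma-voom, 1011 of 28591 with every gene of at least 1 count kept, 0 of 17762 when its 2 groups were fitted alone and 0 to 2861 over the 12 fits that left out 1 library. That count was 0 without replicate 1 or replicate 2 of the Tem1WT/WT sham group, 820 without replicate 3, 360, 2861 and 704 without replicates 1, 2 and 3 of its traction group, and 169 without replicate 3 of the Tem1lacZ/lacZ sham group, and it was 965 to 2108 without each of the other 5. The cause was not tested. Same-numbered libraries come from different mice, and 8 of 18 pairs of them had deviations correlated above 0.1 (r from −0.32 to 0.25). Pairs with different numbers were not compared, so whether libraries of the same number share a batch was not tested. With the replicate block edgeR called 0 of the 10 genes in every comparison and 1467 genes for traction in Tem1WT/WT mice, and Krt14 for traction in Tem1lacZ/lacZ mice was −0.14. With limma-voom the signs turned for traction in Tem1WT/WT mice in Krt5 (−0.0012) and Rptn (0.11), for traction in Tem1lacZ/lacZ mice in Krt14 (−0.997) and Rptn (−0.25), for genotype with traction in Krt14 (−0.38) and Krt5 (−0.0209), and for genotype in the sham groups in Flg (−0.26). With all genes of at least 1 count kept, Krt5 for traction in Tem1lacZ/lacZ mice was 0.0022. Leaving out 1 library gave both signs in these ranges. For traction in Tem1WT/WT mice they were −0.83 to 0.0247 for Hrnr, −0.032 to 0.90 for Krt1, −0.85 to 0.50 for Krt10, −0.0671 to 0.28 for Krt5 and −0.50 to 0.29 for Rptn. For traction in Tem1lacZ/lacZ mice they were −1.15 to 0.66 for Krt14, −1.76 to 0.0883 for Krt2, −0.38 to 0.15 for Krt5 and −0.34 to 0.83 for Rptn. For genotype with traction they were −1.03 to 0.80 for Krt14, −0.12 to 1.03 for Krt2 and −0.23 to 0.34 for Krt5, and in the sham groups −0.54 to 0.46 for Flg, −0.13 to 0.65 for Krt1 and −0.89 to 0.0171 for Krt77. Upper quartile scaling moved the median of all genes to −0.12 for traction in Tem1WT/WT mice and 0.14 for genotype with traction. Krt2 has no value with at least 10 counts required in every library, since its lowest library has 4.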

Other observations

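Cells of the skin appendages were measured beside the epidermis. For traction in Tem1WT/WT mice, 2 of 8 sebocyte markers fell and 0 rose in edgeR, with a median log2 fold change of −1.26, and 0 passed without replicate 1 of the traction group, where the median was −0.96. Over all genes tested 3.54% fell and 5.61% rose, and 1.86% passed without that library. Of 5 melanocyte markers 1 fell and 0 rose, with a median of −1.73, and their summed level was 191.9 to 810.1 CPM in the sham and 80.9 to 192.9 CPM in the traction libraries. Without that library 0 melanocyte markers passed. In Tem1lacZ/lacZ mice 0 of the 8 sebocyte and 0 of the 5 melanocyte markers passed in edgeR, DESeq2 or limma-voom. Over all genes 0%, 0.122% and 2% passed in these tools. At an unadjusted p under 0.05 in edgeR there were 3 sebocyte and 0 melanocyte markers, against 8.12% of all genes. The list medians were −0.76 and 0.15, in the same order.

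Skeletal muscle and adipocyte markers, from tissue under the scar, varied between mice. In Tem1WT/WT mice 0 of 8 muscle markers passed for traction in edgeR, against 9.15% of all genes. All 8 had an unadjusted p under 0.05, against 31.4% of all genes. DESeq2 called 6, all lower, and 21.5% of all genes. The median log2 fold change was −2.80. Without replicate 1 of the traction group it was −3.93 and 2 passed, against 1.86% of all genes. Of 8 adipocyte markers 0 passed for traction in either genotype in edgeR, DESeq2 or limma-voom, with 0 at an unadjusted p under 0.05 in edgeR. The summed adipocyte level ran from 154 to 1361 CPM in Tem1WT/WT and from 196 to 5534 CPM in Tem1lacZ/lacZ libraries.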
